A study of Mus musculus with 21 samples.

Results

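Fast synaptic transmission depends on enzymes that make a transmitter and on carriers that load it into vesicles, and 9 genes of that kind were followed here through the RNA-Seq of AGRP and POMC neurons. They are the GABA-synthesizing enzymes Gad1 and Gad2, the vesicular GABA transporter Slc32a1 (VGAT), the vesicular glutamate transporters Slc17a6 (VGLUT2), Slc17a7 (VGLUT1) and Slc17a8 (VGLUT3), the vesicular monoamine transporter Slc18a2 (VMAT2), the acetylcholine-synthesizing enzyme Chat and the rate-limiting enzyme of catecholamine synthesis, Th. They were taken by symbol from the 35266 genes of the count and TPM tables. Of the 9 genes, 8 passed the filter for low counts (CPM, counts scaled to library size, over 1 in at least 3 libraries), which 16513 genes passed in all; Chat did not pass.

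The neurons were picked by hand for fluorescence from the dissociated arcuate nucleus of male mice on a C57BL/6J background, aged 46 to 56 days. AGRP neurons came from NPY-hrGFP mice, so the reporter follows Npy rather than Agrp, and POMC neurons came from mice labelled Pomc-GFP, which the study's methods call Pomc topazFP. Each library pooled the 44 to 214 sorted neurons of 1 mouse. There were 5 libraries from AGRP neurons of fed mice, 6 from AGRP neurons of mice that had gone 24 hours without food and had only water (FD), 5 from POMC neurons of fed mice and 5 from POMC neurons of FD mice. In that order the mice were 46 to 55, 47 to 55, 51 to 56 and 54 to 56 days old. Age was thus not balanced between the neuron types. Because RNA was pooled over sorted cells, more cells that carry a transcript and more of it per cell cannot be told apart.

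GABA is made from glutamate by glutamate decarboxylase, of which Gad1 encodes the GAD67 and Gad2 the GAD65 form, and VGAT carries GABA and glycine into vesicles. Glutamate is present in every cell, and a neuron is generally taken to release it when it has a vesicular glutamate transporter. AGRP neurons are known as GABAergic cells that promote feeding, while POMC neurons restrain feeding and have been described as a mixed population, with glutamatergic and GABAergic cells.

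The 3 genes whose transcripts set the neuron types apart in both feeding states were Slc32a1, Slc17a6 and Slc18a2, and their promoters are shown for that reason. Each sequence runs from 250 bases before to 50 bases after a RefSeq start on the plus strand of GRCm38.p6: Slc32a1 at chr2:158610508-158610807, Slc17a6 at chr7:51621580-51621879 for the first of its 2 listed starts and chr7:51624387-51624686 for the other, and Slc18a2 at chr19:59260628-59260927. Capitals mark a match to any of 3 motifs searched on both strands, the homeodomain core TAATTA, the E-box CACGTG and the TATA motif TATAAA; none of these overlapped another.
Slc32a1: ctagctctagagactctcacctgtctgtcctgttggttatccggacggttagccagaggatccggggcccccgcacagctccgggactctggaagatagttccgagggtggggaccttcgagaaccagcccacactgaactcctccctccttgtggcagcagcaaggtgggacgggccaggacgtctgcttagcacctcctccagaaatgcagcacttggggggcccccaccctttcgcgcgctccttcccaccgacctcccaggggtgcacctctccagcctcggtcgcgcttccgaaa
Slc17a6, first start: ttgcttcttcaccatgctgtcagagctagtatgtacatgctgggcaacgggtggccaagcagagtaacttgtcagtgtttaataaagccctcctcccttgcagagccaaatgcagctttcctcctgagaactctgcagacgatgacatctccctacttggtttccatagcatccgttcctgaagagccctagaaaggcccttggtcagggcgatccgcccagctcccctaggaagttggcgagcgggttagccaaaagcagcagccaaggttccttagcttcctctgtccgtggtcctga
Slc17a6, other start: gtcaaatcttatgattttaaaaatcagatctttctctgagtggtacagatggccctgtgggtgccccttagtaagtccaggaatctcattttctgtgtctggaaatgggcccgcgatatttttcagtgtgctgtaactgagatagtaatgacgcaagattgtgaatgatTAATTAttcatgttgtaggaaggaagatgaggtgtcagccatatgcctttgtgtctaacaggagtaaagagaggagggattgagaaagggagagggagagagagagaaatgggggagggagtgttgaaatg
Slc18a2: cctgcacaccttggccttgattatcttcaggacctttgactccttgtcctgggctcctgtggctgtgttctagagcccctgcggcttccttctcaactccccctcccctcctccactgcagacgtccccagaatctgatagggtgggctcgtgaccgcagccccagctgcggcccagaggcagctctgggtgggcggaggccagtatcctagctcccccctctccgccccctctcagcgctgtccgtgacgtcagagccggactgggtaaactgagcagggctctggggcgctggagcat
Only the other start of Slc17a6 held a match among these 4, a TAATTA that began 81 bases before the start. All 9 genes were in the promoter table, with 11 promoters, of which 4 held a match: 1 more TAATTA lay in the second listed start of Slc17a8, a TATAAA in Gad1 and a CACGTG in Chat. Among all 32851 promoters of this length, 5.29% held TAATTA, 7.15% CACGTG and 13.6% TATAAA. CpG dinucleotides numbered 17 in the Slc32a1 window, 8 and 3 in those of Slc17a6 and 12 in that of Slc18a2, beside a median of 7 over all promoters.

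In the mm10 coordinates of the deposited table, counted from 1, Gad1 lies at chr2:70562042-70602014, Gad2 at chr2:22622205-22693874 and Slc32a1 at chr2:158610767-158615748, all on the plus strand. Slc17a6 lies at chr7:51621830-51671125 and Slc17a7 at chr7:45163921-45176138, on the plus strand, and Slc17a8 at chr10:89574020-89621253 on the minus strand. Slc18a2 lies at chr19:59260878-59296012 on the plus strand, Chat at chr14:32408203-32465909 and Th at chr7:142892752-142931128, both on the minus strand. Reads were counted on whole genes without strand, so 697 exon bases of Slc32a1 shared with the antisense gene Gm14205 and 111 of Slc18a2 shared with the antisense gene Gm29261 cannot be assigned to either partner. The vesicular acetylcholine transporter gene Slc18a3 lies inside Chat on the same strand and shares 0 exon bases with it.

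Libraries held 9822298 to 37663979 gene counts, so 3 counts correspond to 0.0797 to 0.305 CPM. Marker transcripts of AGRP and POMC neurons matched the labelled neuron types. Agrp and Npy together summed to 12064 to 68921 TPM (a level per transcript length) in AGRP libraries and to 5.45 to 226 TPM in POMC libraries, and Pomc and Cartpt together to 8809 to 37160 TPM in POMC libraries and 114 to 227 TPM in AGRP libraries. Among markers of other arcuate neurons, Ghrh and Sst together summed to 440 to 2334 TPM in AGRP and 0.587 to 213 TPM in POMC libraries. Kiss1, Tac2 and Pdyn together summed to 6.2 to 140 TPM in AGRP and 176 to 470 TPM in POMC libraries. For Slc6a3 and Ddc together the sums were 4.4 to 35.9 TPM in AGRP and 25.5 to 89.5 TPM in POMC libraries. A list of 19 astrocyte, oligodendrocyte, microglial and vascular markers summed to 2.98 to 27.7 TPM in any library. With deprivation in AGRP neurons the astrocyte marker Aldh1l1 was called higher (adjusted p = 0.0284), with 0 or 1 count in each fed library and 5 to 111 in each FD library, while the astrocyte and tanycyte list of 6 summed to 1.12 to 16.4 TPM in fed and 2.58 to 15.6 in FD libraries. The neuronal markers Snap25 (1.06, adjusted p = 9.56e-06) and Tubb3 (0.74, adjusted p = 0.0112) were called higher as well. In POMC neurons Tubb3 was called lower (-1.06, adjusted p = 0.00679). Rbfox3, the third neuronal marker, was called with deprivation in neither neuron type. On the scale of the tests it ran from 17.8 to 30.9 CPM in FD and from 16.4 to 46.6 CPM in fed AGRP libraries. Between fed neuron types Snap25, Tubb3 and Rbfox3 were all called lower in AGRP neurons (log2 -0.94, -1.21 and -1.43), beside 7.57% of all genes. Between FD neuron types Rbfox3 was called lower (-1.96) and Tubb3 higher (0.60) in AGRP neurons, beside 18.6% of all genes. The part of these shifts and differences in the results below was not tested. The labels give the volume of ERCC spike-in RNA added, which was 10 µl in 6 libraries (fed AGRP replicates 2 and 3, FD AGRP replicates 4 and 6, FD POMC replicates 4 and 5) and smaller in the other 15, and these 6 libraries stood apart from the rest in 11 genes, Slc17a7 among them. Results for the 9 genes that rest on these libraries are given below with and without them. Calls of the gene lists that were lost without them are named after those lists. Without them Tubb3 was not called with deprivation in either neuron type or between the FD neuron types.

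**Figure D1:**
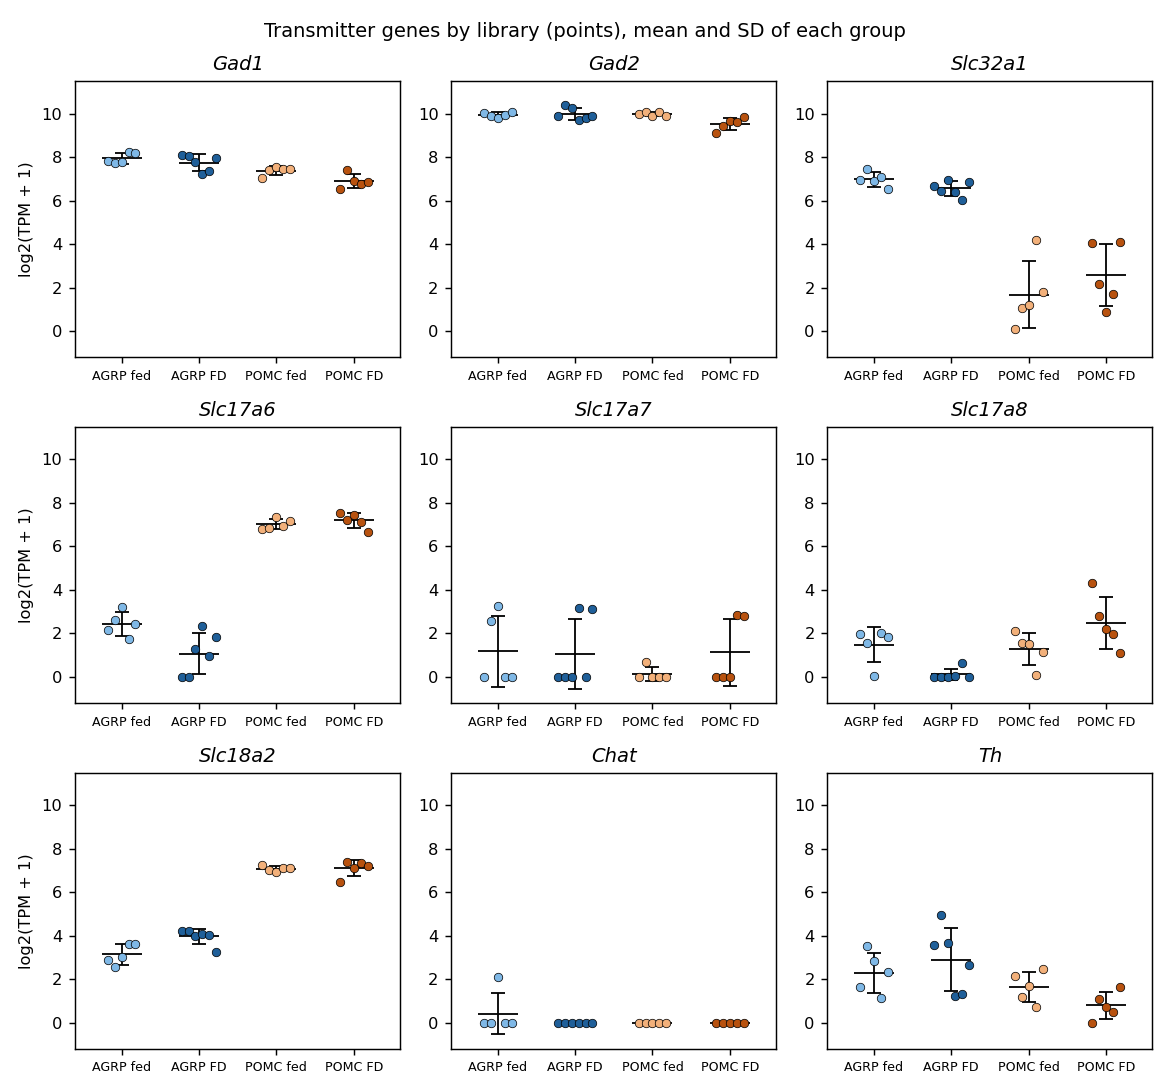
Level of each of the 9 genes in every library, as log2(TPM + 1), by neuron type and feeding state; points are libraries (n = 5, 6, 5 and 5 mice), and lines give the mean and SD of a group. Gad1 and Gad2 are high in all 4 groups, Slc32a1 is high in AGRP neurons, Slc17a6 and Slc18a2 are high in POMC neurons, and Slc17a7, Slc17a8, Chat and Th stay low.

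Ranked by TPM, which allows comparison between genes, Gad2 stood first in all 4 groups, and Gad1 second in every group but FD POMC neurons. In fed AGRP neurons Gad2 stood first with 991 ± 78.5 TPM (mean ± SD, n = 5), followed by Gad1 with 250 ± 44.6 TPM and Slc32a1 with 128 ± 30.1 TPM, and the ranges of these 3 genes did not overlap. Slc18a2 came next at 8.20 ± 2.99 TPM, Th was at 4.76 ± 3.64 TPM and Slc17a6 at 4.74 ± 2.25 TPM, with overlapping ranges. In fed POMC neurons Gad2 again stood first with 1019 ± 70.8 TPM (n = 5) and Gad1 second with 167 ± 20.97 TPM. Next came Slc18a2 with 135 ± 10.96 TPM and Slc17a6 with 131 ± 22.3 TPM, whose ranges overlapped each other and that of Gad1, and Slc32a1 was at 4.46 ± 7.24 TPM. In FD AGRP neurons the order was the same, with Gad2 at 1036 ± 215, Gad1 at 220.5 ± 53.7, Slc32a1 at 95.5 ± 22.1 and Slc18a2 at 15.0 ± 3.32 TPM (n = 6). In FD POMC neurons Gad2 was at 745 ± 141 TPM (n = 5), and Slc17a6 at 149 ± 33.0, Slc18a2 at 141 ± 32.2 and Gad1 at 121 ± 28.9 TPM had overlapping ranges. VGAT and VGLUT2 thus took opposite places in the neuron types.

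Counting calls at an adjusted p under 0.05, the number of the 8 tested genes that differed depended on the comparison. Between AGRP and POMC neurons of fed mice, 1 gene was higher in AGRP neurons (Slc32a1) and 2 were lower (Slc17a6 and Slc18a2), beside 7.57% of all genes called in that comparison (3.33% higher and 4.24% lower); the groups did not overlap for 4 of the 8, beside 8.93% of all genes. Between AGRP and POMC neurons of FD mice, 4 were higher in AGRP neurons (Gad1, Gad2, Slc32a1 and Th) and 3 lower (Slc17a6, Slc17a8 and Slc18a2), beside 18.6% of all genes (9.28% higher and 9.27% lower), and 6 of the 8 did not overlap, beside 11.4%. With food deprivation 1 rose in AGRP neurons (Slc18a2) and 1 fell (Slc17a8), beside 10.3% of all genes called (5.87% higher and 4.43% lower), and for none of the 8 did fed and FD libraries stand apart without overlap, beside 7.65%. In POMC neurons 0 of 8 were called by the edgeR test, beside 0.375% of all genes, although 2 of the 8 had an unadjusted p under 0.05, as did 2010 of all 16513 genes. There limma-voom and DESeq2 each called 1, beside 73 of 16513 and 382 of 16140 genes. The effect of deprivation differed between the neuron types for 3 of 8 (Gad2, Slc17a8 and Slc18a2), beside 6.71% of all genes (4.08% higher and 2.63% lower in AGRP relative to POMC neurons). Each group enters 2 of these 4 comparisons, so they are not independent of each other.

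**Figure D2:**
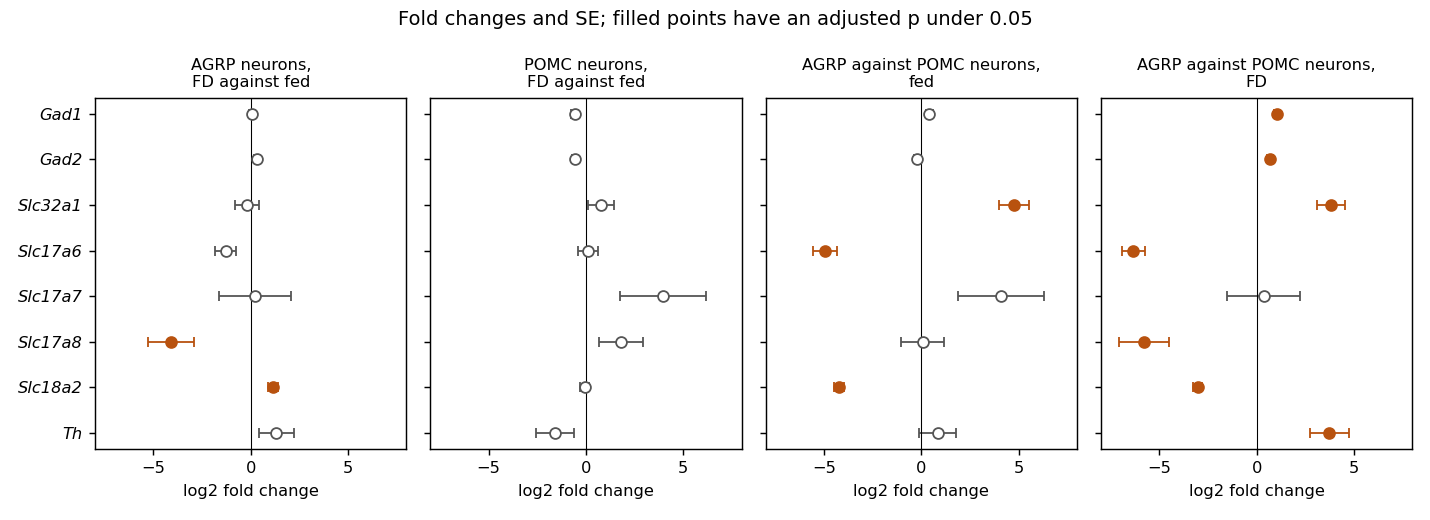
Log2 fold change with its SE for the 8 tested genes in 4 comparisons, from the fit over all genes; filled points have an adjusted p under 0.05. Slc32a1 lies to the right and Slc17a6 and Slc18a2 to the left in both comparisons of neuron type, and with deprivation the filled points are Slc17a8 and Slc18a2 in AGRP neurons.

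Gad1, the form of glutamate decarboxylase known for most basal GABA synthesis, was somewhat higher in AGRP neurons in fed mice and about 2-fold higher in FD mice. In normalized CPM (CPM scaled by TMM, the scale of the tests), AGRP libraries of fed mice held 271, 283, 263, 373 and 367, and fed POMC libraries 214, 257, 246, 234 and 224. Each AGRP library lay above each POMC library, but the log2 difference of 0.40 (SE 0.17) had an adjusted p of 0.168 and is not a call. In FD mice, AGRP libraries ran from 240.1 through a median of 330.3 to 425 normalized CPM, and POMC libraries held 122, 218, 157, 138 and 151.

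That difference in FD mice passed the test, with a log2 fold change of 1.04 (SE 0.17, adjusted p = 2.13e-05) and no overlap of the groups. With food deprivation, Gad1 in AGRP neurons had a log2 fold change of 0.05 (SE 0.16, adjusted p = 0.898). In POMC neurons it was -0.58 (SE 0.17, adjusted p = 0.114), with overlap of a single FD library, replicate 2, with the fed range. The effect of deprivation on Gad1 was not called different between the neuron types (difference 0.64, SE 0.24, adjusted p = 0.105), although without FD POMC replicate 2 it was (0.77, adjusted p = 0.0425).

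Gad2, the membrane-anchored form associated with vesicles, had fed levels that did not differ detectably between the neuron types and FD levels that did. In fed mice, AGRP libraries held 1627, 1687, 1417, 1597 and 1793 normalized CPM, and fed POMC libraries 2152, 2220, 1655, 1918 and 1615, with overlap and a log2 difference of -0.24 (SE 0.15, adjusted p = 0.434). In FD mice, AGRP libraries ran from 1605 through a median of 1798 to 2861 normalized CPM, while POMC libraries held 947, 1152, 1386, 1315 and 1580. No FD POMC library reached the lowest FD AGRP library, and the log2 fold change of 0.67 (SE 0.15, adjusted p = 0.00110) was called.

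The shifts with deprivation ran in opposite directions in the neuron types, and neither was called alone. Gad2 with deprivation was 0.32 higher on the log2 scale in AGRP neurons (SE 0.14, adjusted p = 0.180) and 0.58 lower in POMC neurons (SE 0.15, adjusted p = 0.0719), where every FD library lay below every fed library, the only one of the 8 genes with such a gap and beside 2.35% of all genes. The POMC value passed the threshold with limma-voom (adjusted p = 0.0232) and DESeq2 (adjusted p = 0.0309) and in no other alternative. The test of the difference between the neuron types was called for Gad2 (log2 difference 0.90, SE 0.21, adjusted p = 0.00708), and in each of 21 fits that left out 1 library. On a scale per sorted cell set by the spike-in RNA, on which the median of all genes in POMC neurons fell by 1.11 (log2) with deprivation, Gad2 stood at -1.80 and Gad1 at -1.64 there, and no test of Gad1 or Gad2 was called.

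Slc32a1, which encodes the carrier that fills vesicles with GABA, was the gene of the GABA group called between the neuron types in both feeding states. Fed AGRP libraries held 92.2, 149, 91.7, 105 and 74.2 normalized CPM, and fed POMC libraries 0.0553, 1.07, 1.10, 14.8 and 2.11. In FD mice, AGRP libraries ran from 59.5 through a median of 90.4 to 115 normalized CPM, and POMC libraries held 13.4, 2.87, 0.719, 1.87 and 13.3. The lowest AGRP library thus stood well above the highest POMC library in either state.

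The log2 fold change of AGRP over POMC neurons for Slc32a1 was 4.75 in fed mice (SE 0.77, adjusted p = 6.23e-05) and 3.81 in FD mice (SE 0.73, adjusted p = 0.000248), and it was called in every alternative and every fit without 1 library. Within POMC neurons the transcript was uneven, since 3 of 10 libraries exceeded 10 normalized CPM (fed replicate 4, FD replicates 1 and 5). In those 3 libraries Agrp was 2.87, 4.15 and 17.0 normalized CPM, against 1.52 to 16.6 in the other 7 POMC libraries. Agrp was thus above the range of the others in FD replicate 5 alone. Npy was 7.75, 4.42 and 25.2 in the 3 libraries, against 0.0370 to 26.2 in the other 7. Sst, also called higher in AGRP neurons, was 39.0, 0.107 and 6.60, against 0.308 to 29.4, and so above that range in fed replicate 4 alone. The part of other cells in the uneven Slc32a1 was not tested. Deprivation left Slc32a1 uncalled in AGRP neurons (-0.18, SE 0.62, adjusted p = 0.912) and in POMC neurons (0.76, SE 0.69, adjusted p = 0.728). Without fed POMC replicate 4 the difference between the neuron types in that effect was called (-2.74, adjusted p = 0.0285), and with all libraries it was not (-0.95, SE 0.92, adjusted p = 0.637).

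Slc17a6, the main vesicular glutamate transporter of the hypothalamus, showed the reverse pattern and was the largest difference between the neuron types among the 8 genes in FD mice. Fed POMC libraries held 180, 173, 212, 160 and 184 normalized CPM, and FD POMC libraries 243, 189, 224, 176 and 130.3. The fed AGRP libraries held 4.03, 6.83, 10.0, 2.85 and 5.57 normalized CPM, and FD AGRP libraries ran from 0 through a median of 1.69 to 6.84. Every POMC library was more than 10 times above every AGRP library.

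The log2 fold change of AGRP over POMC neurons was -4.96 in fed mice (SE 0.61, adjusted p = 7.58e-07) and -6.34 in FD mice (SE 0.61, adjusted p = 3.48e-09). In POMC neurons Slc17a6 did not differ detectably with deprivation (0.08, SE 0.51, adjusted p = 0.980), and the sign changed with the setting. In AGRP neurons it was 1.30 lower on the log2 scale (SE 0.53, adjusted p = 0.132), which was not a call, with 2 of 6 FD libraries at 0 and FD replicates 4 and 6 within the fed range. Without FD AGRP replicate 4 the AGRP value was -2.11 and called (adjusted p = 0.00978), without the 6 libraries of the 10 µl set it was -2.29 and called (adjusted p = 0.0296), and with spike-in set as a factor it was -1.48 and called (adjusted p = 0.0475).

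Slc17a8, a vesicular glutamate transporter often found in neurons that use another transmitter as well, was scarce, and FD AGRP libraries had nearly none of it. Fed AGRP libraries held 3.75, 2.86, 0.0609, 4.03 and 3.43 normalized CPM, and the FD AGRP libraries were at 0 in 4 of 6, with 1 count in replicate 4 and 18 counts (0.911 normalized CPM) in replicate 5. Fed POMC libraries held 5.80, 3.22, 2.59, 0.106 and 1.69, and FD POMC libraries 27.5, 8.36, 4.99, 4.13 and 1.60. Only fed AGRP replicate 3, with 1 count, reached into the FD range.

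The fall of Slc17a8 in AGRP neurons had a log2 fold change of -4.09 (SE 1.19, adjusted p = 0.0245), a value set largely by the fit since the FD group was close to 0. It was not called without FD AGRP replicate 4 (adjusted p = 0.0541), with the 2 AGRP groups alone (adjusted p = 0.0793) or without the 10 µl set (adjusted p = 0.109). In POMC neurons the value was 1.79 (SE 1.14, adjusted p = 0.564), and the change differed between the neuron types (difference -5.88, SE 1.65, adjusted p = 0.0275) unless FD POMC replicate 1, the library with 27.5, was left out (-4.92, adjusted p = 0.0936). That call was also lost with age cohort as a factor (adjusted p = 0.0714), without the 10 µl set (adjusted p = 0.0563) and on the scale per sorted cell (adjusted p = 0.110). Between the neuron types Slc17a8 was called in FD mice (-5.81, SE 1.28, adjusted p = 0.00121, no overlap) and in every alternative there, and in fed mice it was at 0.08 (SE 1.11, adjusted p = 0.986).

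Slc17a7, the vesicular glutamate transporter typical of cortical projection neurons, was split by spike-in volume and not called by neuron type or feeding. The 6 libraries with 10 µl of spike-in held 4.51, 7.12, 9.06, 7.08, 5.30 and 5.30 normalized CPM in the order given above, and among the other 15 libraries 14 held 0 counts and fed POMC replicate 2 held 17 counts (0.630 normalized CPM). None of the 4 comparisons called it (adjusted p = 0.972 for AGRP neurons, 0.494 for POMC neurons, 0.331 in fed mice and 0.931 in FD mice), and without those 6 libraries it did not pass the filter for low counts. The 10 other genes for which every 10 µl library exceeded every other library, found after the values were seen, included the cortical and olfactory transcription factor genes Neurod6, Neurod2 and Eomes, with medians of 2.99, 1.23 and 1.00 normalized CPM in the 10 µl set and 0 in the rest. Of all 16513 tested genes 0 had every 10 µl library below the rest, and the source of these transcripts was not tested.

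**Figure D3:**
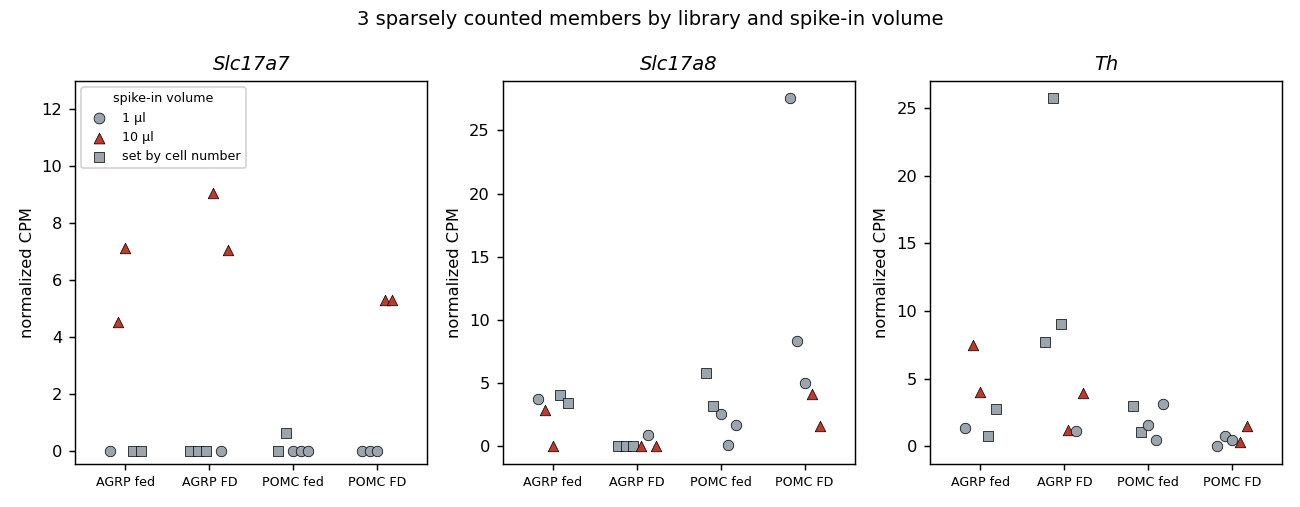
Normalized CPM of Slc17a7, Slc17a8 and Th in every library by group; red triangles mark the 6 libraries with 10 µl of spike-in, grey circles those with 1 µl and grey squares those with a volume that scaled with cell number. All 6 triangles exceed 4 normalized CPM for Slc17a7 while the other 15 libraries lie below 1, and no such split appears for Slc17a8 or Th.

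As a share of the summed TPM of the 3 vesicular glutamate transporters, Slc17a6 made up 98.6% ± 1.11 in fed POMC neurons (SD, n = 5) and 94.4% ± 2.82 in FD POMC neurons (n = 5). In AGRP neurons it made up 50.6% ± 8.80 in fed (n = 5) and 55.4% ± 33.6 in FD mice (n = 4), since FD replicates 1 and 2 held 0 counts of all 3 genes and have no share. Without the 10 µl set, whose libraries held Slc17a7, the AGRP shares were 53.8% ± 10.2 in fed (n = 3) and 62.1% and 100% in the 2 FD libraries left, and the FD POMC share was 94.9% ± 3.85 (n = 3). Gad2 made up 79.9% ± 2.33 of the summed Gad1 and Gad2 TPM in fed AGRP neurons and 85.9% ± 1.87 in fed POMC neurons. In FD mice these shares were 82.4% ± 3.40 and 85.9% ± 3.45.

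Slc18a2, which encodes the carrier that loads dopamine, noradrenaline, serotonin and histamine into vesicles, was abundant in POMC neurons and low but rising with deprivation in AGRP neurons. Fed POMC libraries held 213, 171, 139, 158 and 158 normalized CPM, and FD POMC libraries 102, 190, 155, 184 and 166. Fed AGRP libraries held 6.64, 5.62, 7.55, 12.1 and 12.4, and FD AGRP libraries ran from 10.4 through a median of 19.6 to 24.7. Of the 6 FD AGRP libraries 5 exceeded every fed AGRP library, and replicate 6 did not.

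The rise of Slc18a2 in AGRP neurons had a log2 fold change of 1.14 (SE 0.24, adjusted p = 0.00159), was called in each of 11 fits without 1 library, and missed the threshold with limma-voom (adjusted p = 0.0620) and on the scale per sorted cell (0.84, adjusted p = 1.00). Pomc, a marker of the neurons in which Slc18a2 is high, averaged 11.3 normalized CPM in FD and 12.6 in fed AGRP libraries. Cartpt, the other POMC marker, ran from 28.6 to 57.0 in FD and from 24.0 to 42.6 in fed AGRP libraries. Neither marker was called with deprivation in AGRP neurons, and the part of POMC cells in the rise was not tested. In POMC neurons the Slc18a2 value was -0.07 (SE 0.24, adjusted p = 0.950), and the Slc18a2 change differed between the neuron types (1.21, SE 0.33, adjusted p = 0.0236). That call was lost without fed AGRP replicate 1 (adjusted p = 0.0504) and without fed POMC replicate 1 (adjusted p = 0.0503), with limma-voom (adjusted p = 0.0861) and without the 10 µl set (adjusted p = 0.0948). AGRP neurons remained below POMC neurons, by 4.24 on the log2 scale in fed mice (SE 0.27, adjusted p = 1.04e-12) and 3.03 in FD mice (SE 0.24, adjusted p = 6.73e-11). On the scale per sorted cell the FD value was -1.84 and not called (adjusted p = 0.125), and neither was the difference in the effect of deprivation (adjusted p = 0.541).

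Th, the rate-limiting enzyme of catecholamine synthesis, was low in every group and uneven in FD AGRP neurons. Fed AGRP libraries held 1.37, 7.49, 4.02, 0.806 and 2.73 normalized CPM, and FD AGRP libraries ran from 1.16 through a median of 5.84 to 25.7. Fed POMC libraries held 2.98, 1.07, 1.57, 0.478 and 3.13, and FD POMC libraries 0, 0.764, 0.465, 0.295 and 1.52. Th was called only in FD mice, where AGRP exceeded POMC neurons by 3.73 on the log2 scale (SE 1.02, adjusted p = 0.00880) with overlap, a call lost with age cohort (adjusted p = 0.125) or spike-in set (adjusted p = 0.0789) as a factor.

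The library with the highest Th, FD AGRP replicate 2 with 50 sorted neurons, also held 9.44 normalized CPM of the dopamine transporter gene Slc6a3, 8.98 of the histidine decarboxylase gene Hdc and 9.49 of the serotonin transporter gene Slc6a4. In the other 5 FD AGRP libraries Slc6a3 ran from 0 to 0.729, Hdc from 0 to 0.0745 and Slc6a4 from 0 to 2.25 normalized CPM. The part of other cells in the Th of this library was not tested. Ddc, the enzyme after Th in dopamine synthesis, was lower in AGRP than in POMC neurons in FD mice (-1.86, SE 0.44, adjusted p = 0.00236), the reverse of Th.

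Chat, the enzyme that makes acetylcholine, was at 0 counts in 20 of 21 libraries, which at 3 counts allows up to 0.0911 to 0.294 normalized CPM per library for counting error alone. The exception was fed AGRP replicate 3, a library of the 10 µl set, with 43 counts (2.62 normalized CPM). Slc18a3, the vesicular acetylcholine transporter that lies within the Chat locus, was found in every AGRP library and hardly in POMC neurons. In fed AGRP libraries it was at 0.732, 1.54, 6.33, 0.712 and 1.55 normalized CPM, FD AGRP libraries ran from 0.506 through 6.10 to 16.5, and 8 of 10 POMC libraries were at 0, with the others at 0.0423 and 0.0514. Slc18a3 was called higher in AGRP neurons in fed (adjusted p = 0.000365) and FD mice (adjusted p = 2.50e-05), and in every alternative and every fit without 1 library.

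Before any amount is added, ratios within a library do not depend on scaling between libraries. Tests of 3 ratios were by two-sided exact permutation with adjustment over 12 tests. The smallest p that the libraries allow is 0.00794 for 5 against 5 and 0.00216 for 6 against 5. For each ratio 1 TPM was added to both terms, so a ratio with a term near 0 depends on that amount.

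**Figure D4:**
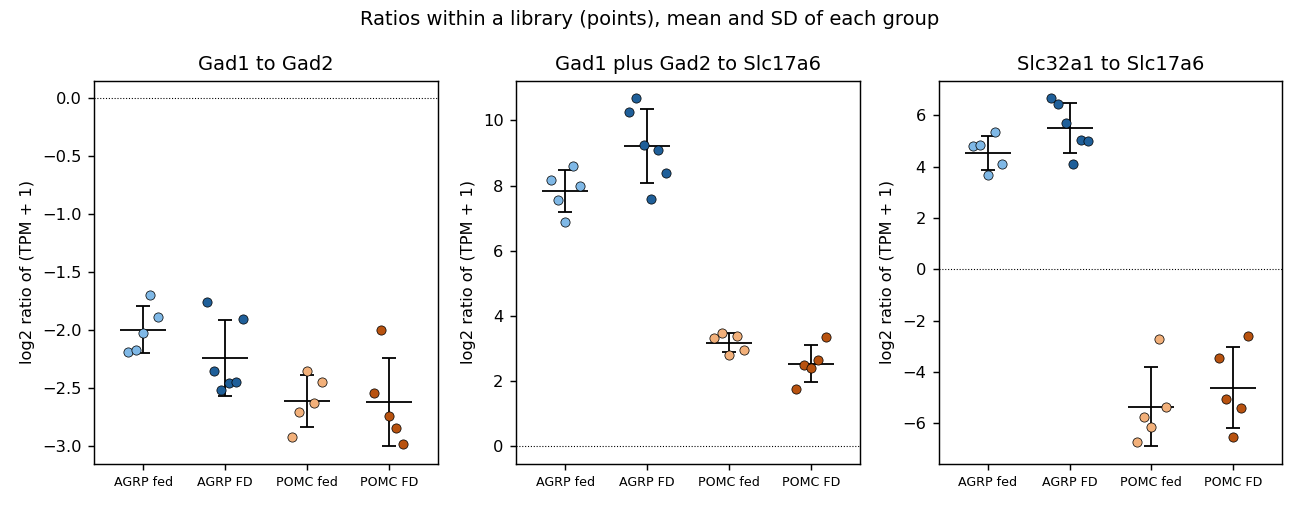
Log2 ratios of TPM + 1 within each library for Gad1 to Gad2, summed Gad1 and Gad2 to Slc17a6, and Slc32a1 to Slc17a6, by group; points are libraries and lines the mean and SD (n = 5, 6, 5 and 5). The Slc32a1 to Slc17a6 ratio is above 3 in all 11 AGRP libraries and below -2 in all 10 POMC libraries.

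The balance of the vesicular carriers for GABA and glutamate separated the neuron types most. The log2 ratio of Slc32a1 to Slc17a6 was 4.54 ± 0.66 (SD, n = 5) in fed AGRP neurons and -5.35 ± 1.55 (n = 5) in fed POMC neurons, a difference of 9.89 (exact permutation test, p = 0.00794, adjusted p = 0.0190). In FD mice it was 5.49 ± 0.97 (n = 6) and -4.62 ± 1.58 (n = 5), a difference of 10.1 (exact permutation test, p = 0.00216, adjusted p = 0.0130). Over the alternatives, which included other amounts added to TPM, the difference ran from 7.84 to 11.1 in fed and from 7.74 to 11.95 in FD mice. For the summed Gad1 and Gad2 to Slc17a6 the difference was 4.65 in fed mice (exact permutation test, adjusted p = 0.0190) and 6.66 in FD mice (exact permutation test, adjusted p = 0.0130). Each of these p-values is the smallest its design can give, and without the 10 µl set, with fewer libraries, the differences were larger but no longer past the threshold (adjusted p = 0.0536 in fed and 0.0571 in FD mice).

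With deprivation the summed Gad1 and Gad2 to Slc17a6 ratio moved apart in the neuron types without passing the threshold. It went from 7.84 ± 0.65 (n = 5) to 9.21 ± 1.14 (n = 6) in AGRP neurons (exact permutation test, p = 0.0476, adjusted p = 0.0952) and from 3.19 ± 0.29 to 2.54 ± 0.56 (n = 5 each) in POMC neurons (exact permutation test, p = 0.0556, adjusted p = 0.0952). The AGRP difference of 1.37 depended on the amount added to TPM, since Slc17a6 was at 0 in 2 FD libraries, and was 2.57 with 0.1 TPM and 0.59 with 5 TPM. Leaving out FD AGRP replicate 4 brought the first below the threshold (1.69, exact permutation test, adjusted p = 0.0317), and leaving out FD POMC replicate 5 the second (-0.85, exact permutation test, adjusted p = 0.0317). The Gad1 to Gad2 ratio was higher in fed AGRP than in fed POMC neurons, -1.995 ± 0.21 against -2.61 ± 0.22 (exact permutation test, p = 0.00794, adjusted p = 0.0190), and did not differ detectably in FD mice (0.38, exact permutation test, adjusted p = 0.147) except without FD POMC replicate 2 (0.54, exact permutation test, adjusted p = 0.0286).

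The genes that work beside these 9 were followed in 6 lists. In AGRP neurons, of 5 tested genes of GABA uptake and breakdown, 2 fell with deprivation and 0 rose, beside 4.43% of all genes called lower. They were the GABA transporter gene Slc6a11 (GAT3; -1.18, SE 0.36, adjusted p = 0.0317) and Aldh5a1, which oxidizes succinic semialdehyde (-0.60, SE 0.16, adjusted p = 0.0143). Slc6a11 in fed AGRP libraries was at 34.8, 45.7, 41.8, 52.2 and 50.5 normalized CPM, and FD AGRP libraries ran from 9.57 through 20.6 to 32.7, without overlap. Aldh5a1 in fed AGRP libraries was at 171, 174, 169, 172 and 204 normalized CPM, and FD AGRP libraries ran from 89.3 through 112 to 146, again without overlap. In POMC neurons 0 of 5 were called by the edgeR test, limma-voom or DESeq2, and 0 had an unadjusted p under 0.05. The Slc6a11 call was lost in 7 of 11 fits without 1 library, while Aldh5a1 was called in all 11, and neither was called without the 10 µl set.

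Of 11 genes of glutamate and glutamine metabolism and uptake, deprivation in AGRP neurons raised 3 and lowered 0, beside 5.87% of all genes called higher. Got1, the cytosolic aspartate aminotransferase, rose by 0.93 (log2, SE 0.15, adjusted p = 7.06e-05), and the glutamine transporter genes Slc38a2 and Slc38a1 rose by 0.80 (SE 0.18, adjusted p = 0.00269) and 0.53 (SE 0.12, adjusted p = 0.00523). Got1 ran from 312 to 545 normalized CPM in FD and from 196 to 229 in fed AGRP libraries, without overlap. In POMC neurons edgeR, limma-voom and DESeq2 called 0 of the 11, of which 3 had an unadjusted p under 0.05, beside 2010 of all 16513 genes. The change differed between the neuron types for Got1 (0.84, SE 0.21, adjusted p = 0.0126) and Slc38a1 (0.78, SE 0.18, adjusted p = 0.00713), beside 6.71% of all genes. Between fed neuron types 3 of the 11 were called, beside 7.57% of all genes. Slc1a1, a neuronal glutamate transporter, and Glul, glutamine synthetase, were higher in AGRP neurons, by 0.85 and 0.74, and Slc38a1 was lower, by 0.43 on the log2 scale. Each of these 3 calls was lost in 3 to 6 of 10 fits without 1 library.

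The list for synthesis, uptake and breakdown of monoamines held 17 genes, of which 13 were tested. Deprivation in AGRP neurons lowered 4 and raised 1, beside 4.43% and 5.87% of all genes. Those that fell included Gch1, which starts synthesis of the cofactor tetrahydrobiopterin (-1.26, SE 0.30, adjusted p = 0.00516), Maob, a monoamine oxidase (-1.73, SE 0.41, adjusted p = 0.00542), and Pcbd1, which recycles the cofactor (-0.65, SE 0.17, adjusted p = 0.0106). The gene that rose was Slc6a4, from 0.0107 to 2.05 normalized CPM on average, a rise held mainly by FD replicates 1 and 2 and called in 3 of 10 alternatives. Gch1 was also the 1 gene of this list called with deprivation in POMC neurons (-1.49, SE 0.32, adjusted p = 0.0232), beside 0.375% of all genes. It was at 64.4, 72.6, 92.0, 36.6 and 75.2 normalized CPM in fed and 16.4, 33.9, 22.4, 15.8 and 32.8 in FD libraries, and this call was lost in 4 of 10 fits without 1 library. Maoa was lower in AGRP than in POMC neurons in fed (-1.38, SE 0.29, adjusted p = 0.00184) and FD mice (-2.33, SE 0.28, adjusted p = 2.73e-07), and Maob and Pts, a further enzyme of cofactor synthesis, were lower in FD mice (-2.97, SE 0.43, adjusted p = 4.23e-06, and -2.34, SE 0.37, adjusted p = 1.80e-05).

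**Figure D5:**
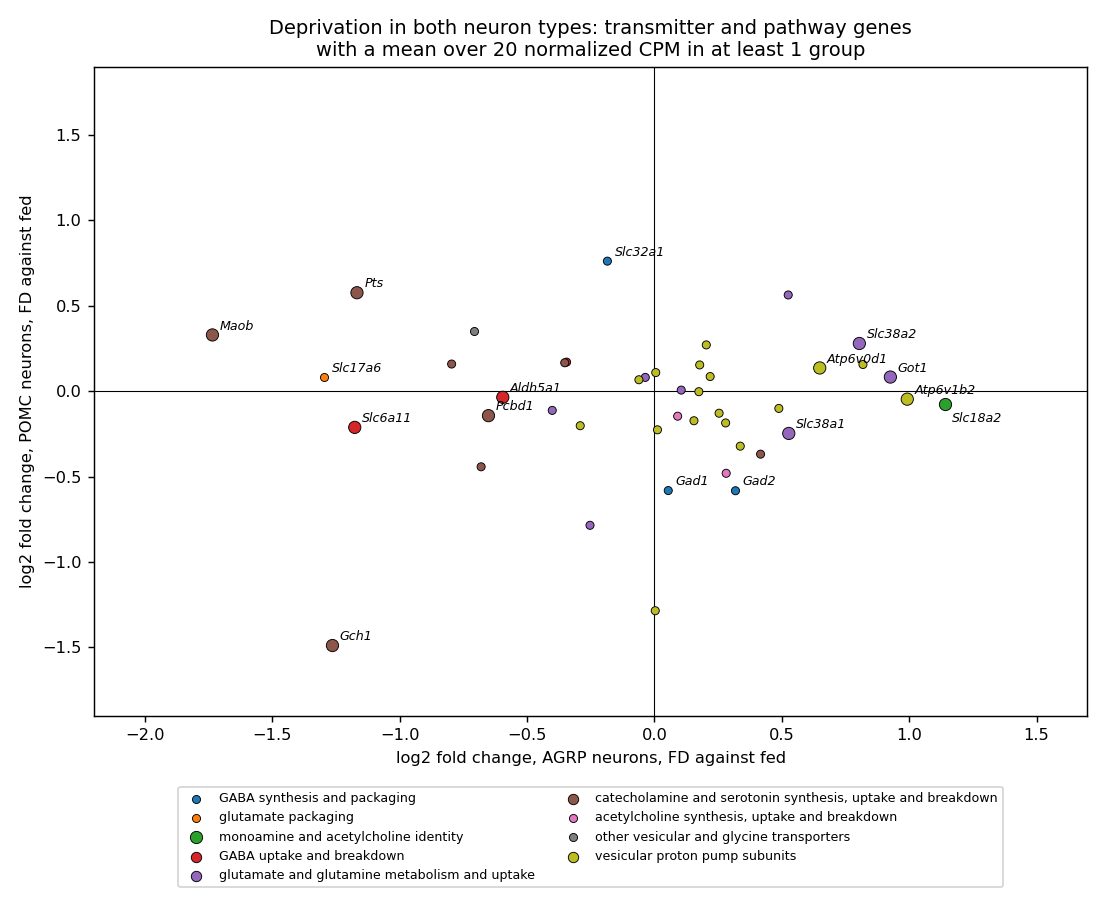
Log2 fold change with deprivation in AGRP neurons (horizontal) against POMC neurons (vertical) for genes of the 9 lists with a mean over 20 normalized CPM in at least 1 group; large points were called in at least 1 of these comparisons. The large points spread along the AGRP axis and stay within 0.6 of 0 on the POMC axis except for Gch1, which lies below -1 on both.

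Vesicular loading of all these transmitters is driven by the proton pump, and all 18 of its subunit and accessory genes were tested. In AGRP neurons deprivation raised 2, Atp6v1b2 (0.99, SE 0.14, adjusted p = 1.34e-05) and Atp6v0d1 (0.65, SE 0.19, adjusted p = 0.0266), and lowered 0, a share near the 10.3% of all genes called. In POMC neurons 0 of 18 were called by the edgeR test, and 1 had an unadjusted p under 0.05, beside 2010 of all 16513 genes. There limma-voom called 0 and DESeq2 called 1 (Atp6v1f), beside 382 of 16140 genes with DESeq2. Atp6v1b2 ran from 1019 to 1383 normalized CPM in FD and from 506 to 691 in fed AGRP libraries. Its change differed between the neuron types (1.04, SE 0.20, adjusted p = 0.00110). In fed mice 2 of 18, Atp6ap1 and Atp6ap2, were lower in AGRP than in POMC neurons (-0.44 and -0.96), beside 7.57% of all genes called. Atp6ap1 was called in 5 of 10 fits without 1 library and Atp6ap2 in all 10. In FD mice 3 of 18, Atp6v1b2, Atp6v0d1 and Atp6v0a2, were higher (0.94, 1.09 and 1.05), a share near the 18.6% of all genes called.

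Of the 3 tested genes among 5 for acetylcholine, Slc18a3 and Ache were called between the fed neuron types, beside 7.57% of all genes. Ache was lower in AGRP neurons (-1.03, SE 0.31, adjusted p = 0.0387) and was called in 4 of 10 fits without 1 library. Of 6 tested genes among 8 other vesicular and glycine transporters, 0 were called in any of the 4 comparisons by the edgeR test. In each comparison 1 or 2 had an unadjusted p under 0.05, beside 2010 to 5010 of all 16513 genes. In FD mice limma-voom called 2 (Slc17a5 and Slc18a1), beside 3238 of all 16513 genes, and DESeq2 1 (Slc17a5), beside 3677 of 16446. In fed mice DESeq2 called 1 (Slc18a1), beside 1673 of 16446 genes, and neither tool called any with deprivation. The median log2 fold change of the tested genes with deprivation in AGRP neurons was -0.60 for GABA uptake and breakdown, 0.11 for glutamate metabolism, -0.68 for monoamines and 0.19 for the proton pump, beside -0.02 over all tested genes. On the scale per sorted cell, the calls named here for these 6 lists were lost except those of Slc18a3 in both feeding states and of Atp6v0d1 between the neuron types in FD mice; 97 of all genes were called with deprivation in AGRP neurons on that scale. Without the 10 µl set, the AGRP calls with deprivation of Slc38a2, Pcbd1, Slc6a4 and Atp6v0d1 were lost, besides those of Slc6a11 and Aldh5a1. The POMC call of Gch1 and the fed calls of Slc38a1, Slc1a1, Ache and Atp6ap1 were lost there too. The calls of Got1 and Slc38a1 for a change that differed between the neuron types were also lost without that set.

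Among 8200 genes with a mean over 20 normalized CPM in at least 1 group, those with the most similar pattern over the 21 libraries were listed for the 5 genes above that level. The libraries fall into 2 neuron types and share 3 spike-in sets, so these correlations are a description with no test. Slc17a6 was closest to Tenm1, Pomc and Cdh8 (Pearson r = 0.977, 0.971 and 0.971 of log2 normalized CPM + 1), and Slc18a2 to Rnf128, Alcam and Efr3b (0.974, 0.965 and 0.964). Slc32a1 was closest to St8sia4, Ucp2 and Arhgap36 (0.946, 0.941 and 0.940). Gad1 was closest to Irs4, Gfra2 and Camk4 (0.894, 0.874 and 0.867), and Gad2 to Marcksl1, Fkbp4 and Prkcsh (0.890, 0.868 and 0.863).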

How the data were processed

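RNA-Seq libraries were made from sorted neurons with an amplification kit without molecular identifiers, so intervals and count floors cover counting error only. Per the study's methods, the authors trimmed reads with cutadapt, aligned them to mm10 with STAR, and counted unique reads per gene without strand with HTSeq; the deposited counts are whole numbers that were not normalized. The deposited TPM values were made by the authors from those counts and summed exon length. Levels between genes are given in TPM and tests used counts.

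The 92 spike-in rows and 5 counting summary rows were kept out of library sizes. Genes over 1 CPM in at least 3 libraries were scaled by TMM and tested with edgeR 4.0.16 (R 4.3.3) by its quasi-likelihood test in 1 model of the 4 groups, and p-values were adjusted by Benjamini-Hochberg over all 16513 genes, with calls at 0.05. Each library is 1 mouse. Ratios were compared by two-sided exact permutation tests (scipy 1.17.1) after adding 1 TPM. The fit was tested on simulated data. Alternatives were limma-voom (limma 3.58.1), DESeq2 1.42.0, other scaling including by spike-in RNA per sorted cell, other filters and covariates, a replicate block, leaving out 1 library and, chosen after seeing the data, leaving out the 10 µl spike-in set. The 9 genes, the lists and the rule for named genes (the 9 genes, list genes called in a comparison, and the 3 genes nearest in pattern to each gene over 20 normalized CPM) were chosen with earlier results of these data known. Some list genes are not reported here and were left out of the lists and their counts. Promoters are RefSeq's on GRCm38.p6.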

Additional observations from a re-analysis of the deposited data

Results flagged for a closer look

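A library stood apart from the others of its group in 6 of 33 groups of 9 genes by 4 groups with any spread. The rule flags about 5% of groups by chance only where values are normally distributed. A group with 1 library above 0 is flagged whatever its value, as for Slc17a7 and Chat here. The 6 of 33 therefore cannot be read against 5%. Slc32a1 reached 14.8 normalized CPM in fed POMC replicate 4, with the nearest library at 2.11. Slc17a7 was 0.630 in fed POMC replicate 2, with 0 in the others. Slc17a8 was 0.911 in FD AGRP replicate 5, with the nearest at 0.0304, and 27.5 in FD POMC replicate 1, with the nearest at 8.36. Chat was 2.62 in fed AGRP replicate 3, with 0 in the others, and Th was 25.7 in FD AGRP replicate 2, with the nearest at 9.05.

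The effect of deprivation differed between the neuron types, by the interaction test of edgeR's fit over all genes, for Gad2 (0.90, adjusted p = 0.00708), Slc17a8 (-5.88, adjusted p = 0.0275) and Slc18a2 (1.21, adjusted p = 0.0236).

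Xist, a transcript of the inactive X chromosome, had a median of 10.2 normalized CPM in the 6 libraries with 10 µl of spike-in, although all mice were labelled male, and a median of 0.0458 with a highest value of 12.04 in the other 15. On the scale of log2(normalized CPM + 1), fed POMC replicates 1 and 2 averaged 3.55, beside group means of 3.29 to 3.68 in the 10 µl set. These 2 libraries, with a spike-in volume that scaled with cell number, also held 4460 and 4348 normalized CPM of Cartpt. The other fed POMC libraries held 779 to 1140. The part of these differences in the results above was not tested.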

How the results depend on the processing

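Over 40 results for single genes of the 9 and 929 alternative fits, 869 kept direction and side of the threshold, 20 lost the call, 7 gained it and 33 changed sign. Called genes with deprivation in AGRP neurons went from 2 to 1 with limma-voom, spike-in scaling and the 2 groups alone and to 3 with spike-in set as a factor, and in POMC neurons from 0 to 1 with limma-voom and DESeq2. Between the neuron types in FD mice the count went from 7 to 4 with spike-in scaling, and the interaction count from 3 to 0 with spike-in scaling and to 1 without the 10 µl set; without 1 library it ran from 2 to 4.

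Sign changes were in values that were not called, except between the neuron types in FD mice under spike-in scaling, where Qdpr was 0.24 and Pcbd1 0.38. With deprivation in AGRP neurons, Gad1 was -0.074 with spike-in scaling, -0.014 without the 10 µl set and -0.039 to 0.13 without 1 library; Slc32a1 was 0.056 with spike-in scaling; Slc17a7 was -0.026 with limma-voom, -0.088 with spike-in scaling and -0.72 to 1.25 without 1 library. In POMC neurons Slc17a6 was -0.40 with spike-in set as a factor, -0.94 with spike-in scaling and -0.015 to 0.19 without 1 library; Slc17a7 was -3.84 with spike-in set; Slc18a2 was 0.030 with age cohort, 0.12 with spike-in set and -0.13 to 0.052 without 1 library. In fed mice Slc17a7 was -4.17 with spike-in set, Slc17a8 -0.44 with the number of sorted cells and -0.23 to 0.57 without 1 library, and Th -0.18 without the 10 µl set. In FD mice Slc17a7 was -0.025 with spike-in set and -0.58 to 1.04 without 1 library, and its interaction was 4.14 with spike-in set. The cause was not tested.

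Without the 10 µl set, the fed ratios differed by 0.69 (Gad1 to Gad2), 5.06 (summed Gad to Slc17a6) and 10.1 (Slc32a1 to Slc17a6), and the FD ratios by 7.59 and 10.99, all no longer past the threshold with fewer samples (adjusted p = 0.0536 fed, 0.0571 FD); the POMC Gad1 to Gad2 ratio was 0.18. Without 1 library the summed Gad to Slc17a6 ratio ran from 1.08 to 1.69 in AGRP and from -0.85 to -0.45 in POMC neurons, and Gad1 to Gad2 from -0.17 to 0.078 in POMC neurons and from 0.29 to 0.54 between FD types.

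Same-numbered replicates did not deviate together (correlations from -0.12 to 0.05), so the numbers do not pair the samples; the replicate block changed 0 calls of the 9 genes and put Slc17a7 at -3.29 in AGRP neurons with deprivation and at -2.25 between FD types.

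Over all genes, calls with deprivation in AGRP neurons numbered 1700, but 97 with spike-in scaling and 640 without the 10 µl set; in POMC neurons 62, but 382 with DESeq2, 13 and 40; between fed types 1250, but 297 and 782; between FD types 3064, but 1117 with spike-in scaling; for the interaction 1108, but 119 and 415. Spike-in scaling moved the median of all genes by -1.11 in POMC neurons and 1.10 between FD types, and the split of higher and lower calls from 1533 and 1531 to 892 and 225 between FD types, from 30 and 32 to 2 and 11 in POMC neurons and from 674 and 434 to 100 and 19 for the interaction, which was 574 and 607 with limma-voom.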
